A study of Homo sapiens with 9 samples.

Results

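The inhibitor of apoptosis (IAP), TNF receptor-associated factor (TRAF) and death receptor genes were examined in MIA PaCa-2 cells by RNA-seq. The set held 10 genes, chosen by symbol out of the 58735 genes in the count table: the IAP genes BIRC2, BIRC3 and XIAP, the TRAF genes TRAF1 and TRAF2, the caspase gene CASP8 with its regulator CFLAR, and the receptor genes FAS, TNFRSF10A and TNFRSF10B. This line was established long ago from a human pancreatic cancer, and its genotype was labelled WT in all groups. Cells received 0.1% DMSO as vehicle, 1 μM SCH772984, which inhibits the kinases ERK1 and ERK2, or 1 μM compound 1, which inhibits the kinases TBK1 and IKKε. Treatment lasted 24 h in every group, and 3 libraries were made per group. The labels do not say whether these came from separate cultures, so p-values measure the spread between libraries, which may be technical.

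Death receptors sit at the cell surface and, once bound by a ligand such as TRAIL or FAS ligand, recruit the adaptor FADD and the protease caspase-8. The CFLAR product, cFLIP, resembles caspase-8 and competes with it at the receptor. TNF receptors instead assemble a complex in which TRAF2 holds the ubiquitin ligases cIAP1 and cIAP2, encoded by BIRC2 and BIRC3, and this complex passes a survival signal to NF-κB. XIAP acts further downstream, where it binds and blocks caspases. Several of these genes, BIRC3, TRAF1 and CFLAR among them, are well-known transcriptional targets of NF-κB, and TBK1 and IKKε are relatives of the kinases that activate it.

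Promoter sequence is shown for the members whose promoter windows hold a κB consensus match, the sequence type bound by NF-κB. The windows ran from 250 bases before to 50 bases after RefSeq start sites (GRCh38.p14). For 8 members, 20 windows were searched on both strands, while TNFRSF10A and TNFRSF10B were not searched. The consensus was found in 3 of these 20 windows, in BIRC3, CFLAR and FAS, against 11.3% of 35116 windows of the same length over all genes. Capitals mark the matches, each sequence is written in the direction of transcription, and the BIRC3 matches lie on the opposite strand.
BIRC3, chr11:102317234-102317449, plus strand: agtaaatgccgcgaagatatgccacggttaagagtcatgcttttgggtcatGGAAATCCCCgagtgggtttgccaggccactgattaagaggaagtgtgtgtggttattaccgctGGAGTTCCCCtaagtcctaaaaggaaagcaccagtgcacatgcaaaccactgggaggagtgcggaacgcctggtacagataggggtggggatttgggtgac
CFLAR, chr2:201118609-201118638, plus strand: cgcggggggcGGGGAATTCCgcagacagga
FAS, chr10:88991264-88991293, plus strand: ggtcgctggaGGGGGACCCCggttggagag
BIRC3 was the member with 2 matches in 1 window, beginning 199 and 135 bases before the start site, numbered -199 and -135. The CFLAR match began at -97 and the FAS match at -157. The AP-1 motif TGANTCA was found in 4 of the 20 windows, of CFLAR, CASP8 and FAS, against 7.71% of all windows. The ETS motif CCGGAAG was found in 2 of the 20, of BIRC2 and TRAF1, against 10.3% of all windows. No window held matches to more than 1 of these motifs, and a match of letters does not show binding.

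Several members are neighbours on their chromosomes in the coordinates of the count table (GRCh38). BIRC3 (ENSG00000023445, chromosome 11, 102317450 to 102339403) ends 7807 bases before BIRC2 (ENSG00000110330, 102347211 to 102378670), with 0 protein-coding genes between them. CFLAR (ENSG00000003402, chromosome 2, 201116104 to 201176687) and CASP8 (ENSG00000064012, 201233443 to 201287711) are 56755 bases apart, with CASP10 in between. TNFRSF10B (ENSG00000120889) and TNFRSF10A (ENSG00000104689) are both on the minus strand of chromosome 8, with 3 protein-coding genes between them, among them the decoy receptor genes TNFRSF10C and TNFRSF10D. TRAF1 (ENSG00000056558, 120902393 to 120929173) and TRAF2 (ENSG00000127191, 136881912 to 136926607) share chromosome 9. XIAP (ENSG00000101966, 123859724 to 123913979) is on chromosome X, and FAS (ENSG00000026103, 88990582 to 89015785) is on chromosome 10. The strand setting of the counting is not given in the sources used here, and 3 members are overlapped by a gene with at least 30 counts in a library. These pairs are FAS with ACTA2, TNFRSF10A with its antisense transcript TNFRSF10A-AS1, and TNFRSF10B with RHOBTB2, so reads in the shared stretches may not be told apart.

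Libraries held 9464432 to 10286223 counts with DMSO, 9652741 to 9840769 with compound 1 and 11056977 to 13887859 with SCH772984. Compound 1 replicate 1 stood apart from its group: the chi-square per degree of freedom between libraries was 11.1 and 8.29 for its pairs, against 2.78 for the other pair of compound 1 2.44 to 3.33 among DMSO libraries and 4.31 to 6.97 among SCH772984 libraries. Of 11 listed ERK output genes, 10 were tested, and all 10 were lower with SCH772984, beside 35.5% of all tested genes. Their median log2 fold change of -3.82 counts DUSP6 (0 to 1 counts with SCH772984) at a bound of at least 18-fold, so this median is a limit. Genes as low with SCH772984 as DUSP6, ETV4 (4 to 10 counts) and ETV5 (8 to 12) passed the filter on low counts only through the DMSO libraries, so they had to differ. With compound 1, 0 of 10 were called. Levels are given as CPM, which are counts divided by effective library size after TMM (trimmed mean of M values) normalization. Of 8 epithelial markers, 5 reached 1 CPM in DMSO, with KRT8 at 2510.1 and KRT18 at 887.2 CPM, but EPCAM and CDH1 were at 0 in DMSO. The summed epithelial markers were 3630 to 3890 CPM with DMSO, 3120 to 3830 with compound 1 and 1170 to 1380 with SCH772984. With SCH772984, 3 of the 5 tested epithelial markers were lower (KRT8, KRT18 and SOX9), MUC1 was 6.82 times as high as in DMSO (adjusted p = 1.05e-13), and KRT19 was at 1.08 times (adjusted p = 0.149). The summed fibroblast markers were 461 to 510, 472 to 526 and 989 to 1110 CPM in the same order, with DCN and LUM at 0 in DMSO and compound 1. Nearly all of this sum was COL1A2 (means of 485.8, 498.7 and 1027.6 CPM), while COL1A1 was at 0.248, 0.281 and 2.64 CPM. The 5 leukocyte markers summed to 0.817 to 3.09 CPM over all libraries, with PTPRC and CD3E at 0 in each, and CD14 was lower with SCH772984 (log2 fold change -1.30, adjusted p = 0.000955). The summed endothelial markers were 2.89 to 4.53 CPM with DMSO, 6.23 to 6.71 with compound 1 and 0 to 0.539 with SCH772984. Nearly all of this sum in DMSO and compound 1 was CDH5 (means of 3.88 and 6.45 CPM). CDH5 was lower with SCH772984 (28 to 40 counts in DMSO and 0 to 4 with SCH772984, adjusted p = 1.77e-11). It passed the filter on low counts only through the DMSO libraries, so this p-value comes from a gene that had to differ. The part of these marker changes in the results with SCH772984 was not tested. In bulk libraries, fewer cells with a transcript and less of it per cell cannot be told apart.

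All 10 members were expressed in DMSO. Per kilobase of annotated gene length, TNFRSF10B had the highest DMSO level, 34.2 ± 1.22 CPM per kb (SD, n = 3), followed by BIRC2 at 22.2 and TNFRSF10A at 20.9. TRAF2 (11.3), CASP8 (9.57), XIAP (6.27) and BIRC3 (4.86 CPM per kb) were intermediate. CFLAR (4.28) and FAS (3.79) were neighbours whose libraries overlapped, and TRAF1 was lowest at 2.42 CPM per kb. The CFLAR value rests on an annotated length of 22529 bases summed over many transcripts, so its level per kb is sensitive to the annotation. With SCH772984, TNFRSF10A moved from the third to the fifth place (3.44 CPM per kb), where its libraries were next to those of FAS and XIAP, while TNFRSF10B remained first at 25.4 CPM per kb. With compound 1, the first 3 places were held by TNFRSF10B (38.0), BIRC2 (25.3) and TNFRSF10A (21.0), as with DMSO.

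SCH772984 was compared with DMSO to see which of these survival and death genes respond to ERK inhibition. All 10 members were lower with SCH772984 by edgeR's quasi-likelihood test (Benjamini-Hochberg adjusted p under 0.05 over 13834 genes), and 0 were higher. The background is large, since 35.5% of all tested genes were lower and 37.2% higher in this comparison. With scaling by library size alone, 7 members were called lower, and 28.3% of tested genes were lower and 45.1% higher. The SCH772984 libraries were all below the DMSO libraries for each of the 10 members, a pattern shown by 37.4% of the tested genes. The median log2 fold change of the members was -1.23, beside 0.03 for all tested genes. The members separated by size: BIRC2, BIRC3, XIAP, TRAF1, CFLAR and TNFRSF10A were more than 2-fold lower, and TRAF2, CASP8, FAS and TNFRSF10B were less than 2-fold lower. BIRC2 was close to this limit, with a 95% interval of -1.22 to -0.90 and a value of -0.88 with library size alone. A call of at least 2-fold lower was made for 10.7% of the tested genes.

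**Figure D1:**
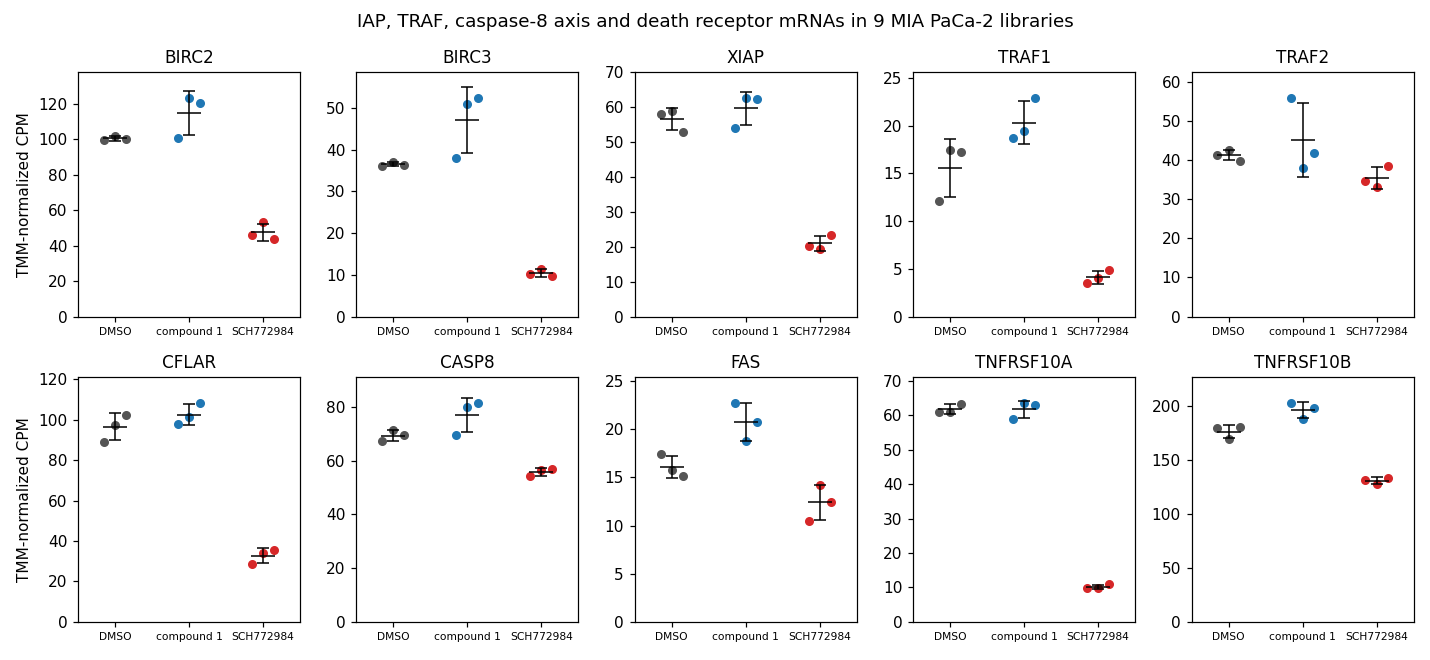
TMM-normalized CPM (linear axis from 0) of each member in the 9 libraries, with DMSO in grey, compound 1 in blue and SCH772984 in red; long bars are means and error bars are SD (n = 3). The SCH772984 libraries lie below the DMSO libraries in every panel. As a fold, the group means are widest apart for TNFRSF10A (10.1 against 61.8 CPM) and closest for TRAF2 (35.4 against 41.2 CPM).

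Among the IAP genes, all 3 were lower with SCH772984. BIRC3, encoding cIAP2, measured 36.2, 37.1 and 36.4 CPM in DMSO and 10.2, 11.4 and 9.64 CPM with SCH772984. The groups were far apart, and the log2 fold change was -1.80 (SE 0.117, adjusted p = 3.43e-18). XIAP measured 58.0, 58.9 and 52.9 CPM in DMSO and 20.3, 19.4 and 23.5 CPM with SCH772984, a log2 fold change of -1.40 (SE 0.093, adjusted p = 6.67e-18). BIRC2, encoding cIAP1, measured 99.3, 102.0 and 100.2 CPM in DMSO and 45.9, 53.0 and 43.7 CPM with SCH772984. Its change was the smallest of the 3, -1.06 (SE 0.0794, adjusted p = 4.29e-16), or 0.48 times the DMSO level, whereas BIRC3, its neighbour on the chromosome, was at 0.288 times.

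The TRAF genes were unlike in size of change. TRAF1, an adaptor without a RING domain that associates with TRAF2 and the cIAPs, measured 12.1, 17.5 and 17.2 CPM in DMSO and 3.47, 4.08 and 4.85 CPM with SCH772984. Its DMSO replicate 1 was lower than the other two, yet all 3 exceeded every SCH772984 library, and the log2 fold change was -1.88 (SE 0.18, adjusted p = 9.36e-13). TRAF2, the adaptor that carries the cIAPs to the TNF receptor complex, measured 41.3, 42.5 and 39.9 CPM in DMSO and 34.6, 33.1 and 38.6 CPM with SCH772984. The groups were close, and the log2 fold change of -0.20 (SE 0.0889, adjusted p = 0.0451) was near the threshold. With scaling by library size alone, which moves the median of all genes by 0.17 on the log2 scale, TRAF2 was at -0.02 (adjusted p = 0.836). Its call was also lost, at log2 fold changes of -0.17 to -0.22, without DMSO replicate 1 (adjusted p = 0.067), DMSO replicate 2 (0.106), SCH772984 replicate 1 (0.0804) or SCH772984 replicate 2 (0.126).

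CFLAR changed far more than CASP8, although the genes are neighbours. CFLAR measured 89.2, 97.6 and 102.4 CPM in DMSO and 28.8, 33.9 and 35.6 CPM with SCH772984, a log2 fold change of -1.53 (SE 0.084, adjusted p = 8.1e-21). CASP8 measured 67.1, 71.3 and 69.5 CPM in DMSO and 54.2, 56.5 and 56.8 CPM with SCH772984, a log2 fold change of -0.29 (SE 0.0765, adjusted p = 0.000841). Scaling by library size alone ended the CASP8 call (-0.12, adjusted p = 0.168). The ratio of CFLAR to CASP8 counts within a library does not depend on the scaling. It was 1.33, 1.37 and 1.47 in DMSO, 1.41, 1.27 and 1.33 with compound 1, and 0.531, 0.6 and 0.626 with SCH772984. The ratios of all DMSO and compound 1 libraries lay above those of all SCH772984 libraries. Whether a count ratio is above or below 1 depends on gene length: per kb, mean CFLAR was below CASP8 in every group (4.28 against 9.57 CPM per kb in DMSO, 4.55 against 10.6 with compound 1 and 1.45 against 7.71 with SCH772984). The ratio with SCH772984 was 0.421 times that in DMSO and 0.438 times that with compound 1, each with a two-sided exact permutation p of 0.1, the smallest that 3 against 3 libraries allow.

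The death receptors also moved to unlike extents. TNFRSF10A, encoding the TRAIL receptor DR4, measured 60.9, 61.1 and 63.4 CPM in DMSO and 9.84, 9.72 and 10.9 CPM with SCH772984. Its log2 fold change of -2.58 (SE 0.1, adjusted p = 2.7e-26) was the largest among the members and ranked at the 0.694 percentile of the 13834 tested genes, counted from the most lowered. The antisense transcript TNFRSF10A-AS1 had 34 to 39 counts in DMSO and 7 to 11 with SCH772984, and its part in the result was not tested. TNFRSF10B, encoding the second TRAIL receptor DR5, measured 179.6, 169.0 and 180.3 CPM in DMSO and 131.9, 127.4 and 133.1 CPM with SCH772984. Its groups were separate but close, with a log2 fold change of -0.41 (SE 0.064, adjusted p = 2.56e-07), at the 29.3 percentile. FAS measured 17.4, 15.8 and 15.1 CPM in DMSO and 10.5, 14.2 and 12.5 CPM with SCH772984, a log2 fold change of -0.36 (SE 0.142, adjusted p = 0.0234). The FAS call was lost with library size alone (-0.18, adjusted p = 0.254), without DMSO replicate 1 (0.0874) and without SCH772984 replicate 1 (0.106).

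The TRAIL receptors were also set against each other within libraries. The ratio of TNFRSF10B to TNFRSF10A counts was 2.95, 2.77 and 2.84 in DMSO, 3.43, 2.96 and 3.14 with compound 1, and 13.4, 13.1 and 12.3 with SCH772984. The ratio with SCH772984 was 4.53 times that in DMSO and 4.07 times that with compound 1 (exact permutation p = 0.1 for each, the smallest possible). With compound 1 it was 1.11 times that in DMSO, and the 3 libraries all lay above the DMSO libraries (exact permutation p = 0.1).

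**Figure D2:**
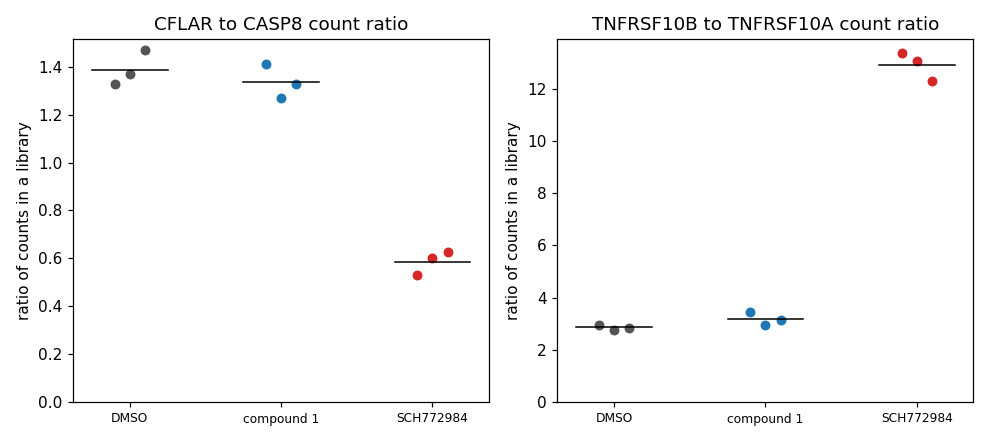
Ratio of the counts of CFLAR to CASP8 (left) and of TNFRSF10B to TNFRSF10A (right) in each library, on linear axes from 0. Horizontal bars are geometric means of the groups. The first ratio is 1.27 to 1.47 in DMSO and compound 1 libraries and 0.531 to 0.626 with SCH772984, while the second is 2.77 to 3.43 and 12.3 to 13.4.

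Compound 1 was compared with DMSO to see whether the same genes respond to TBK1 and IKKε inhibition. By edgeR's quasi-likelihood test over 12849 genes, 0 of the 10 members passed the adjusted threshold in either direction, where 0.49% of tested genes (63) were called higher and 0.374% (48) lower. With library size alone, 0 members, 85 genes higher and 25 lower were called. DESeq2 also called 0 members. All 10 fold changes were above 0, with a median of 0.17 against 0.00 for all tested genes, and 5 members (BIRC2, BIRC3, TRAF1, FAS and TNFRSF10B) had an unadjusted p under 0.05, all higher. The background at an unadjusted p under 0.05 was 7.35% higher and 7.69% lower. For 4 members the compound 1 libraries all lay above the DMSO libraries, a pattern shown by 9.37% of tested genes. Because both inhibitors are set against the same DMSO libraries, the fold changes of the comparisons are not independent of each other.

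BIRC3 measured 38.0, 51.1 and 52.4 CPM with compound 1 against 36.2 to 37.1 CPM in DMSO. Its replicate 1 was just above the DMSO libraries and the other two were well above, with a log2 fold change of 0.39 (SE 0.115, adjusted p = 0.127). TRAF1 measured 18.7, 19.4 and 22.9 CPM with compound 1, all above the 12.1 to 17.5 CPM in DMSO, with 0.41 (SE 0.15, adjusted p = 0.207). FAS measured 22.7, 18.8 and 20.8 CPM with compound 1, all above the 15.1 to 17.4 CPM in DMSO, with 0.38 (SE 0.123, adjusted p = 0.156). TNFRSF10B measured 202.5, 187.9 and 198.0 CPM with compound 1, again all above DMSO, with 0.17 (SE 0.0679, adjusted p = 0.246). BIRC2 measured 100.6, 123.1 and 120.2 CPM with compound 1, of which replicate 1 lay among the DMSO values, with 0.21 (SE 0.0855, adjusted p = 0.263).

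The other members were nearer to DMSO. TNFRSF10A measured 59.0, 63.5 and 63.0 CPM with compound 1, and its 95% interval of the log2 fold change ran from -0.155 to 0.192, so a change of the size seen with SCH772984 lies far outside it. XIAP measured 54.1, 62.6 and 62.2 CPM (log2 fold change 0.09, 95% interval -0.10 to 0.28). CFLAR measured 98.1, 101.5 and 108.1 CPM (0.11, interval -0.07 to 0.28), and its ratio to CASP8 was 0.961 times that in DMSO (exact permutation p = 0.4). CASP8 measured 69.7, 79.9 and 81.3 CPM (0.17, adjusted p = 0.37). TRAF2 measured 55.9, 37.9 and 41.8 CPM (0.15, adjusted p = 0.615), a spread within the compound 1 group that was wider than its difference from DMSO.

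These values depend on compound 1 replicate 1. Against the DMSO mean, 8 members were higher in replicate 1 (median log2 difference 0.04), 9 in replicate 2 (0.18) and 10 in replicate 3 (0.20). Without replicate 1, 4 members were called higher with compound 1: BIRC3 (0.52, adjusted p = 9.27e-05), BIRC2 (0.29, adjusted p = 0.0025), TRAF1 (0.46, adjusted p = 0.0324) and CASP8 (0.23, adjusted p = 0.0362). In that fit 3.46% of all tested genes were called higher and 6.1% lower. FAS and TNFRSF10B, highest in replicate 1, were then at 0.31 (adjusted p = 0.151) and 0.14 (adjusted p = 0.121), and TRAF2 turned to -0.03. BIRC3 was also called without a filter on low counts (0.38, adjusted p = 0.0289).

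**Figure D3:**
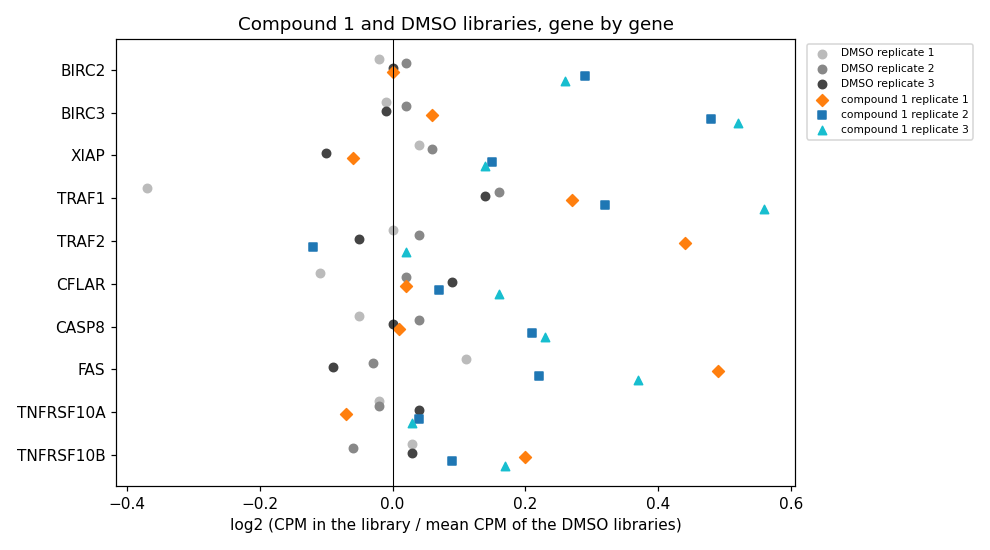
Log2 ratio of each member's CPM in a DMSO library (grey circles) or a compound 1 library (orange diamonds, blue squares and light blue triangles for replicates 1, 2 and 3) to the mean of the 3 DMSO libraries. Replicates 2 and 3 of compound 1 lie to the right for BIRC2, BIRC3 and CASP8, where replicate 1 lies near 0, whereas replicate 1 is the highest for TRAF2, FAS and TNFRSF10B.

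The inhibitors were then compared directly. All 10 members were lower with SCH772984 than with compound 1, where 32.6% of 13863 tested genes were lower and 33.7% higher, and the median of the members was -1.37 against 0.03 for all genes. With library size alone, 9 members were lower, and of all genes 3736 were lower and 5526 higher. TNFRSF10A differed most, at -2.59 (adjusted p = 8.84e-14), followed by TRAF1 at -2.28 (adjusted p = 2.48e-10), BIRC3 at -2.17 (adjusted p = 2.69e-11), CFLAR at -1.63 (adjusted p = 1.73e-11), XIAP at -1.49 (adjusted p = 2.24e-10) and BIRC2 at -1.26 (adjusted p = 2.3e-09). FAS was at -0.73 (adjusted p = 0.000185), TNFRSF10B at -0.57 (adjusted p = 3.16e-06) and CASP8 at -0.45 (adjusted p = 0.000344). TRAF2 was the member whose libraries overlapped between the inhibitors, 33.1 to 38.6 CPM with SCH772984 and 37.9 to 55.9 CPM with compound 1 (-0.34, adjusted p = 0.0228). This TRAF2 call was lost without compound 1 replicate 1 (-0.15, adjusted p = 0.208) and without SCH772984 replicate 1 (0.0694) or 2 (0.0839). It was also lost with library size alone (-0.20, adjusted p = 0.165) and under a filter of 10 counts in each library (-0.26, adjusted p = 0.0775).

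**Figure D4:**
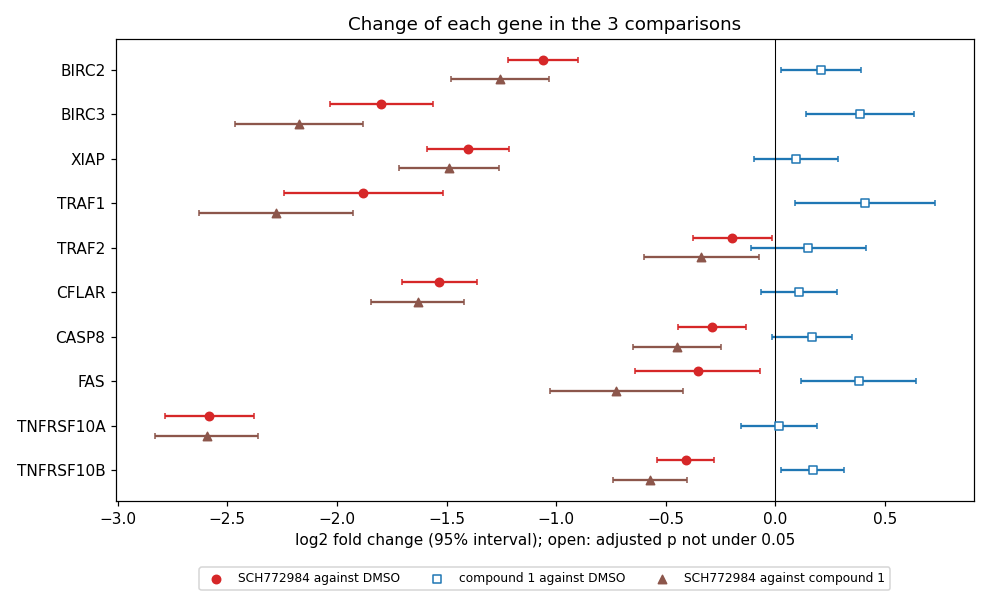
Log2 fold change of each member with its 95% interval for SCH772984 against DMSO (red circles), compound 1 against DMSO (blue squares) and SCH772984 against compound 1 (brown triangles), with open symbols where the adjusted p was not under 0.05. SCH772984 values run from -0.20 for TRAF2 to -2.58 for TNFRSF10A against DMSO, and compound 1 values from 0.02 for TNFRSF10A to 0.41 for TRAF1.

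The rest of the pathway was described by a list of 57 other genes in 7 roles. With SCH772984, 45 were tested, of which 15 were higher, 18 were lower and 12 were not called, with a median log2 fold change of 0.00. With library size alone, 19 were higher and 16 lower. Among the other IAP genes, 2 of 5 were tested and 1 was lower. That gene, BIRC5, encodes survivin, a mitotic regulator whose level follows cell division, and measured 255.8 ± 15.1 CPM in DMSO and 73.5 ± 3.39 CPM with SCH772984 (SD, n = 3; log2 fold change -1.78, adjusted p = 1.46e-26). BIRC6, a large ubiquitin-conjugating member of the family, was at 0.06 (adjusted p = 0.483). Of the other TRAF genes, TRAF4 (0.58), TRAF5 (0.63) and TRAF6 (0.56) were higher, and TRAF3 (-0.55) and TRAF7 (-0.30) were lower.

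Of 9 other death and decoy receptors, 6 were tested, with 5 lower and 1 higher with SCH772984. TNFRSF1B, encoding TNF receptor 2, fell from 95.5 ± 6.59 to 21.5 ± 3.93 CPM (log2 fold change -2.12, adjusted p = 9.87e-23). TNFRSF1A, encoding TNF receptor 1, fell from 416.8 ± 44.0 to 163.9 ± 6.9 CPM (-1.33, adjusted p = 7.24e-22). NGFR (-0.97), TNFRSF21 (-0.69) and the TRAIL decoy receptor TNFRSF10D (-0.56) were also lower. TNFRSF25, encoding death receptor 3, was higher: it measured 8.05, 9.9 and 9.71 CPM in DMSO, 15.9, 19.3 and 15.1 CPM with compound 1 and 20.8, 25.6 and 29.9 CPM with SCH772984. On the log2 scale it differed from DMSO by 1.49 with SCH772984 (adjusted p = 7.29e-13) and 0.88 with compound 1 (SE 0.153, adjusted p = 0.02). TNFRSF25 was the 1 gene of the 43 pathway genes tested that was called with compound 1, where 2 were higher and 2 lower at an unadjusted p under 0.05 and the median was -0.03. Its call with compound 1 was lost without DMSO replicate 1 (0.79, adjusted p = 0.165), 2 (0.93, adjusted p = 0.109) or 3 (0.92, adjusted p = 0.0716), or without compound 1 replicate 2 (0.76, adjusted p = 0.054). TNFRSF25 overlaps PLEKHG5 on the same strand, which had 218 to 302 counts in DMSO, 312 to 337 with compound 1 and 797 to 1235 with SCH772984, so reads from the pair may be mixed.

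The ligands were near 0 in DMSO. TNFSF10, encoding TRAIL, had 0, 0 and 0 counts in DMSO, 0, 0 and 1 with compound 1, and 32, 25 and 42 with SCH772984. Set against a floor of 3 counts per library, this was at least 7.72-fold higher than DMSO (adjusted p = 2.61e-10) and at least 7.95-fold higher than compound 1 (adjusted p = 2.37e-07). It passed the filter on low counts only through the SCH772984 libraries, so these p-values come from a gene that had to differ, and it was not tested for compound 1 against DMSO. The ligand thus appeared in the libraries in which its receptor transcripts TNFRSF10A and TNFRSF10B were lower. TNF had 0, 1 and 0 counts in DMSO, 2, 1 and 2 with compound 1 and 10, 6 and 21 with SCH772984, at least 2.8-fold higher than DMSO, and was too low for the test. TNFSF15 (3, 0 and 0 counts in DMSO, 4, 6 and 2 with compound 1, 2, 11 and 4 with SCH772984) was untested, as were LTA (at most 4 counts in any library), TNFRSF10C (at most 5) and BIRC7 (at most 6). FASLG, RIPK3, TNFRSF6B and BIRC8 had 0 counts in all 9 libraries. TNFRSF6B overlaps RTEL1-TNFRSF6B on the same strand (83 to 137 counts in DMSO) and ARFRP1 on the other (338 to 384), so reads in the shared stretches may not be told apart.

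Signalling components downstream of the receptors moved in both directions. Of 20 adaptors and ubiquitin regulators, 19 were tested, with 5 higher and 5 lower. FADD, the adaptor between death receptors and caspase-8, measured 21.6 ± 1.19 CPM in DMSO and 8.21 ± 0.772 CPM with SCH772984 (-1.37, adjusted p = 4.99e-12). TRADD, the corresponding adaptor of TNF receptor 1, was higher (1.14, adjusted p = 4.68e-13), and it overlaps FBXL8, which had 31 to 44 counts in DMSO and 117 to 266 with SCH772984. The other genes of this list called higher were the deubiquitinase genes CYLD (1.02, adjusted p = 2.95e-15) and TNFAIP3 (0.77, adjusted p = 0.00107), RBCK1 (0.57) and TAX1BP1 (0.59). The others called lower were the deubiquitinase gene OTULIN (-0.61, adjusted p = 1.58e-07), SPATA2 (-0.74), TNIP1 (-0.33) and MAP3K7 (-0.34). RIPK1, the kinase at the centre of the TNF receptor complex, was at -0.05 (adjusted p = 0.586).

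The other caspases split, with 3 of 6 higher, 2 lower and 1 not called. The apoptosome initiator CASP9 rose from 6.87 ± 1.21 to 17.6 ± 0.876 CPM (1.38, adjusted p = 7.01e-11), and CASP6 (1.15) was also higher. CASP2 was lower (-0.74, adjusted p = 1.15e-10). CASP10, which lies between CFLAR and CASP8, was at 0.00 (95% interval -0.36 to 0.35, adjusted p = 0.985). Of 7 IAP antagonist and apoptosome genes, 6 were tested, with 2 higher, 3 lower and 1 not called. Cytochrome c (CYCS) fell from 344.7 ± 12.1 to 127.0 ± 10.3 CPM (-1.42, adjusted p = 3.32e-23) and BID, which links caspase-8 to mitochondria, was lower (-1.12). SEPT4, one isoform of which antagonises XIAP, was higher at a low level (2.70, SE 0.426, adjusted p = 3.15e-07). It had 3 to 5 counts in every DMSO and compound 1 library and likewise passed the filter only through the SCH772984 libraries. DIABLO, an IAP antagonist whose symbol has 2 overlapping rows that may share reads, was at 0.24 (adjusted p = 0.52) in the row used.

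**Figure D5:**
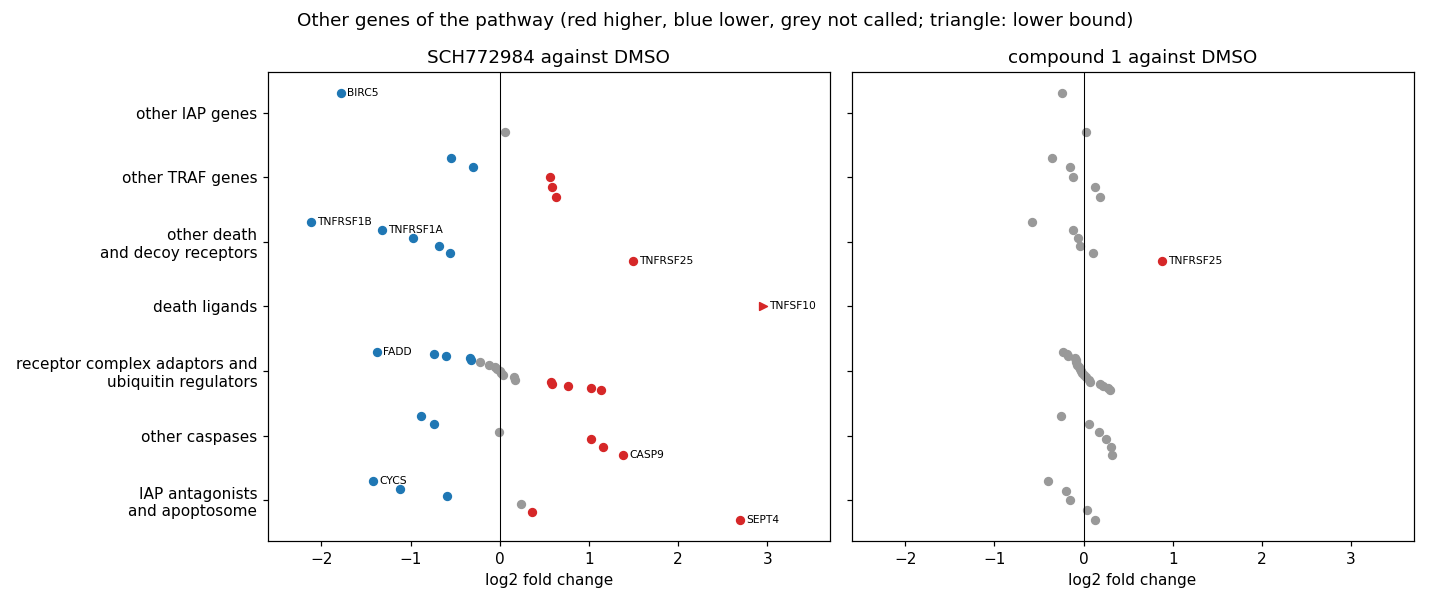
Log2 fold change of each tested pathway gene by role, for SCH772984 against DMSO (left) and compound 1 against DMSO (right), with red for higher, blue for lower and grey for not called; the triangle for TNFSF10 is a lower bound. With SCH772984, 15 genes are higher and 18 lower, and with compound 1 the 1 called gene is TNFRSF25.

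Between the inhibitors, 16 of the 45 tested pathway genes were higher and 17 lower with SCH772984, with a median of -0.01. The pathway genes thus moved in both directions with SCH772984, at a share close to the background in each direction. All 10 members were called lower, or 7 with library size alone. The difference between members and pathway genes was not tested, the members were chosen with results of these data known, and 5 of the 6 tested other receptors were lower too. Over the 9 libraries, the tested genes with CPM most like TNFRSF10A (log2 scale) were NASP (Pearson r = 0.9998), KIF2C (0.999) and SPRY4 (0.999). Those most like TRAF1 were MTHFD2L (0.9944), CEP41 (0.9929) and TOMM20 (0.9927). These r values describe libraries in which the SCH772984 group lies apart from the rest, and r does not compare the size of the differences: NASP was at 221.1 CPM in DMSO and 106.4 with SCH772984, and SPRY4 at 233.3 and 1.99. No test was made.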

How the data were processed

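RNA from MIA PaCa-2 cells was measured in 9 libraries, 3 per group, grouped by their deposited labels. The authors deposited one table of read counts per gene, whole numbers without normalization. The submitters' processing notes name HISAT2 2.0.5, featureCounts 1.5.0-p3 and hg38; the strand setting is not given in the sources used here. Of 58735 gene identifiers, 58690 matched GENCODE release 29 with their coordinates, and 29048 had a count. Intervals cover the spread between libraries and counting error.

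Each pair of groups was fitted alone with edgeR 4.0.16 (limma 3.58.1, R 4.3.3; robust quasi-likelihood test, TMM, filterByExpr with minimum count 10 and minimum total 15). A gene was called at a Benjamini-Hochberg adjusted p under 0.05 over all tested genes. CPM values used TMM factors over all 9 libraries. Folds against groups at 0 used a floor of 3 counts per library. Count ratios were tested by exact permutation (two-sided). DESeq2 1.42.0, other scalings, other filters, a replicate block and leaving out each library were alternatives. Steps were tested on simulated data.

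The members and lists were chosen with earlier results of these data known. Named pathway genes were the 6 called genes with the largest change in each comparison, genes at the floor in 1 group, and any gene called with compound 1; the other pathway genes named were chosen after their values were seen. Some genes of the lists are counted but not reported by name here. The same replicate numbers in different groups did not pair libraries: same-numbered deviations correlated at -0.0667 to 0.0871.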

Additional observations from a re-analysis of the deposited data

How the results depend on the processing

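For SCH772984 against DMSO, 7 to 10 members were called lower under the alternatives in scaling, filter, libraries in the fit, tool, replicate block and left-out libraries, with 6 at a 2-fold minimum, which also left 8 pathway genes higher, 6 lower and 3998 genes in all. For SCH772984 against compound 1, 9 or 10 members were lower under the same alternatives, with 6 at a 2-fold minimum (pathway genes 4 higher and 6 lower, 3698 genes in all). TRAF2, CASP8 and FAS made up the lost calls against DMSO. TRAF2 was not called with at least 10 counts in every library (-0.12, adjusted p = 0.234), with all 9 libraries in 1 fit (-0.19, adjusted p = 0.15) or with DESeq2 (adjusted p = 0.0756), and FAS was not called with that filter (-0.28, adjusted p = 0.0793).

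For compound 1 against DMSO, 111 genes were called, against 417 without a filter on low counts, 188 with all 9 libraries in 1 fit, 412 with the replicate block, 236 with DESeq2, 7 at a 2-fold minimum, 1933 at an unadjusted p and 8 to 1251 with 1 library left out (10, 8 and 17 without DMSO replicates 1, 2 and 3, and 1251, 51 and 21 without compound 1 replicates 1, 2 and 3). The cause was not tested. Members called higher were 1 without a filter, 1 with the replicate block (BIRC3, 0.37, adjusted p = 0.0365), 5 at an unadjusted p and 0 to 4 with 1 library left out. Pathway genes called higher were 2 at an unadjusted p, 0 at a 2-fold minimum and 0 to 2 with 1 library left out, and 2 were lower at an unadjusted p. With 1 library left out, signs with compound 1 reversed for BIRC5 (-0.02 to 0.09, below 0 without DMSO replicate 3 or compound 1 replicates 1 or 3), TRAF2 (-0.03 to 0.26) and TNFRSF1A (-0.05 to 0.19), both below 0 without compound 1 replicate 1, and TNFRSF10A (-0.00 to 0.05, below 0 without compound 1 replicate 2). Since the numbers do not pair libraries, the block shares only a number. Low counts limit TNF, LTA, TNFSF15, TNFRSF10C and BIRC7.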
